A study of Homo sapiens with 4 samples.

Results

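The LKB1, SIK, CRTC and CREB genes were followed in A549 cells in which INSL4 had been knocked down. They are 10 genes of the 22465 that the array measured under a single gene symbol: STK11, which encodes the kinase LKB1, its partners STRADA and CAB39, the salt-inducible kinase genes SIK2 and SIK3, the coactivator genes CRTC1, CRTC2 and CRTC3, and the transcription factor genes CREB1 and CREM. They were chosen by name, and each was represented by 1 row of the deposited table. A549 is an established line from a human lung carcinoma and is LKB1-deficient: its STK11 gene is known to carry an inactivating mutation. Cells of the control group (shCtl) carried a pLKO.1 lentiviral vector that the design text describes as scrambled shRNA and the labels as a vector control. Cells of the knockdown group (shINSL4) carried the same kind of vector with an shRNA against INSL4, and the titles name 1 hairpin only, so an effect of the hairpin sequence itself and an effect of lower INSL4 cannot be told apart. Each group had 2 cultures and 2 arrays, 4 arrays in all.

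LKB1 is a tumour suppressor kinase that works in a complex with a STRAD pseudokinase and the scaffold MO25, the product of CAB39. The complex switches on a family of related kinases, among them the SIKs. SIKs phosphorylate the CRTC coactivators, which are then held in the cytoplasm by adaptor proteins of the YWHA family, while unphosphorylated CRTCs enter the nucleus and raise transcription by CREB. Without LKB1 this brake is weak and CREB target genes are active. INSL4, an insulin-family peptide gene best known from the placenta, has been described as one of the genes that this route turns on in LKB1-deficient lung cancer cells. The comparison of shINSL4 with shCtl therefore asked here whether the RNAs of the upstream components themselves differed when INSL4 was lowered.

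INSL4, the targeted gene, had a log2 level of 9.03 and 8.92 in shCtl and of 7.26 and 7.22 in shINSL4. It fell by 1.73 on the log2 scale (SE 0.0684, limma, Benjamini-Hochberg-adjusted p = 0.000142, below written BH-adjusted), so both knockdown arrays carried the labelled change. Array medians of the tested genes lay between 6.91 and 6.98, and the median change over all of them was 0.08 on the log2 scale. Of all tested genes, 15.8% passed an adjusted p under 0.05, 6.41% as higher and 9.42% as lower in shINSL4. Higher genes made up 40.5% of those calls with the values as deposited, 25.6% with each array centred on its median, 27.5% after cyclic loess and 55.2% without shCtl replicate 1, so the balance of calls depends on the setting. Fold changes below are log2 differences, shINSL4 minus shCtl, and errors of levels are SD over 2 arrays. Levels are log2 RMA values, which can be compared between arrays for a gene but not between genes.

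Markers were read as a check of the labelled cell type. The 3 genes known to be abundant in A549, ALDH1A1, AKR1B10 and AKR1C1, had log2 levels from 10.51 to 13.18, and 0 of them passed the threshold. Of 5 epithelial markers, 4 were lower in shINSL4 and 0 higher (80%, beside 15.8% of all tested genes); their summed level on the linear scale was 14215.5 to 14463 in shCtl and 10480.3 to 11039.7 in shINSL4. Of 7 measured markers of leukocytes, endothelium, fibroblasts and liver, 1 was lower, CD68, and 0 were higher, with a summed level of 1386 to 1478 in shCtl and 1012 to 1018 in shINSL4. Without CD68, whose product is also a lysosomal protein, the other 6 summed to 353 to 398 in shCtl and 410 to 418 in shINSL4, so the lower sum of the list came from CD68. These sums weigh each probe set by its own brightness. The leukocyte gene PTPRC lay between 3.72 and 3.88 on all arrays; the deposited table holds no detection call. The part of these shifts in the values below was not tested. In RNA from a whole culture, a change in the share of cells that express a gene and a change in RNA per cell cannot be told apart.

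**Figure D1:**
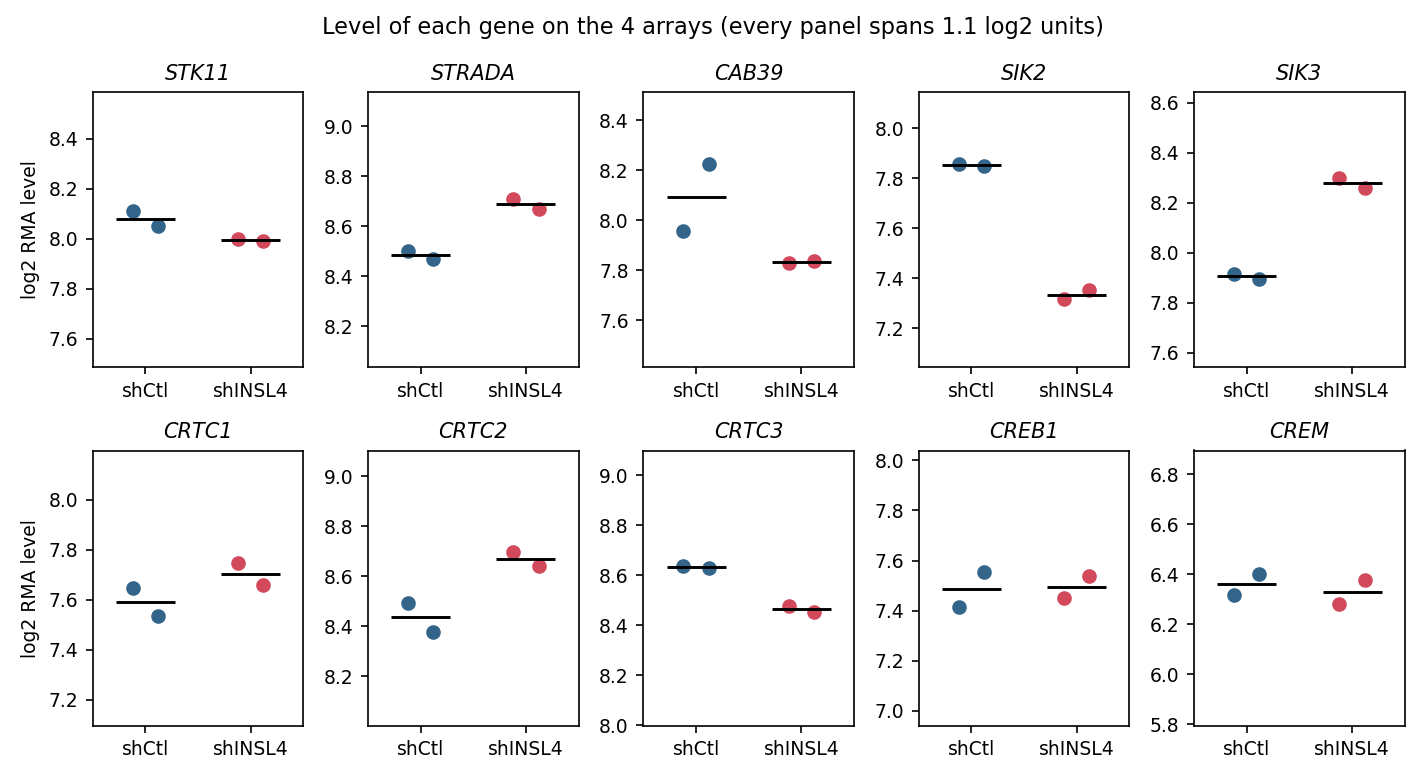
Log2 RMA level (y axis) of each of the 10 genes on the 2 shCtl arrays (blue) and the 2 shINSL4 arrays (red); horizontal lines are group means. Every panel spans the same range of log2 units around its own centre, so distances can be compared between panels and heights cannot. SIK2 lies lower and SIK3 higher on both shINSL4 arrays, while the groups overlap for CREB1 and CREM.

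SIK2 and SIK3 changed in opposite directions, and they were the 2 of the 10 genes that passed the threshold. SIK2 encodes a SIK that phosphorylates CRTC2 and CRTC3 and restrains CREB in several tissues. Its log2 level was 7.86 and 7.85 in shCtl and 7.32 and 7.35 in shINSL4, so the shCtl arrays were nearly equal and both shINSL4 arrays lay below them. SIK2 fell by 0.52 on the log2 scale (SE 0.0606, 95% interval -0.66 to -0.37), to 69.8% of the shCtl level, with a BH-adjusted p of 0.00250 in limma. SIK3 encodes the largest of the SIK proteins, known for roles in bone growth and sleep in mice as well as for restraining CRTCs. Its log2 level was 7.92 and 7.89 in shCtl and 8.30 and 8.26 in shINSL4, and the shINSL4 arrays were the higher ones without overlap. SIK3 rose by 0.38 on the log2 scale (SE 0.0612, 95% interval 0.23 to 0.52), a level 29.7% above that of shCtl, with a BH-adjusted p of 0.00903 in limma. The SIK3 call was lost when all transcript clusters of the array were tested (limma, BH-adjusted p = 0.0668). It was also lost without shINSL4 replicate 1, at a change of 0.35, in a fit with the same SE of 0.131 for each gene followed here. Over the 13 alternative settings the SIK3 change ran from 0.33 to 0.42 and its adjusted p from 0.00106 to 0.0668, while SIK2 passed in all 13, at -0.57 to -0.50.

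The difference between SIK3 and SIK2 within an array does not depend on how arrays are scaled by a constant; this measure was chosen after their values were seen. The log2 level of SIK3 minus that of SIK2 was 0.06 and 0.05 in shCtl and 0.98 and 0.91 in shINSL4. The ratio of SIK3 to SIK2 signal was thus 1.86-fold higher in shINSL4. This restates the separate changes of the 2 genes, and the lack of overlap between the groups follows from them. SIK1, the third SIK gene and a textbook CREB target, had a log2 level of 10.10 and 10.06 in shCtl and 9.71 and 9.60 in shINSL4. SIK1 fell by 0.43 on the log2 scale (SE 0.0682, limma, BH-adjusted p = 0.00823), and its call was lost when all transcript clusters were tested (adjusted p = 0.0606). The human reference genome lists a near-identical copy of SIK1, whose signal the array may not separate. This value is therefore uncertain as to the gene.

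The stretches upstream of the annotated start sites of SIK2 and SIK3 are shown because these members passed the threshold, and an upstream stretch of CREM because it held the complete CRE, the DNA element that CREB binds. Each is 250 bases long, ends at the base before the start site and runs 5′ to 3′ on the gene's strand, from RefSeq on GRCh38.p14. Capitals mark TGACG, the core of the CRE, on either strand (CGTCA when read on the other). The positions are chr11:111602199-111602448 on the plus strand for SIK2, chr11:117098429-117098678 on the minus strand for SIK3 and chr10:35195652-35195901 on the plus strand for CREM, at 1 of its 7 listed start sites.
SIK2: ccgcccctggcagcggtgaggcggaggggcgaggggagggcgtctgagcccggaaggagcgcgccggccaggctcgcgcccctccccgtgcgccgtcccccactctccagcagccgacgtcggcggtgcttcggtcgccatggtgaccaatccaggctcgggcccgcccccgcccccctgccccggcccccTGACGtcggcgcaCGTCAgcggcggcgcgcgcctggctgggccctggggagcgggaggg
SIK3: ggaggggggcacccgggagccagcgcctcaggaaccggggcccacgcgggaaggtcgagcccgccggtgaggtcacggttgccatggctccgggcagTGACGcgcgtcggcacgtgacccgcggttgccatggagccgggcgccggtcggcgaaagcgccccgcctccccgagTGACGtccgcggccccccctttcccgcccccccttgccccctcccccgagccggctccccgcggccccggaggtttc
CREM: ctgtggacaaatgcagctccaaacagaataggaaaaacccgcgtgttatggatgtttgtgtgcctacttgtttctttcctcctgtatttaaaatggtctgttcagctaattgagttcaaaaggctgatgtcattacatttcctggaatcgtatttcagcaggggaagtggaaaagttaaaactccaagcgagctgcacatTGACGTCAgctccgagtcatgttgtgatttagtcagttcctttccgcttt
In the SIK2 stretch 1 TGACG begins 59 bases before the start and 1 CGTCA 46 bases before it. In the SIK3 stretch TGACG begins 153 and 77 bases before the start. Each of these stretches thus held 2 matches to the core, as did that of STK11, which did not pass the threshold. The CREM stretch holds the complete palindrome TGACGTCA 50 bases before the start, which counts as a match to the core on both strands. Of 35116 such stretches in the RefSeq promoter table, 21.2% held TGACG on either strand and 1.65% held TGACGTCA. Of the 10 genes, 8 matched that table, all but STRADA and CRTC2, with 15 stretches in all, some of which overlap. TGACG was held by 6 stretches, and the 5 genes concerned were STK11, SIK2, SIK3, CRTC3 and CREM. The share of 21.2% counts stretches with at least 1 match. No such share was taken over genes or for 2 matches in a stretch. A match describes the letters of the stretch only, and the arrays did not measure binding there.

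None of the 3 genes of the LKB1 complex passed the threshold. STK11 RNA had a log2 level of 8.11 and 8.05 in shCtl and of 7.997 and 7.99 in shINSL4. The shINSL4 arrays were slightly the lower ones, without overlap, with a difference of -0.09 (SE 0.0622, 95% interval -0.23 to 0.06, limma, BH-adjusted p = 0.336). The interval leaves room for a level between 15.0% lower and 4.46% higher in shINSL4. The array reads RNA, so these levels carry no information on LKB1 protein or its activity. STRADA encodes the pseudokinase that activates LKB1 and keeps it in the cytoplasm. Its log2 level was 8.50 and 8.47 in shCtl and 8.71 and 8.67 in shINSL4. The groups did not overlap, and the difference of 0.21 (SE 0.0616) had a BH-adjusted p of 0.0682 in limma. STRADA passed under 4 of 13 alternative settings, at an adjusted p of 0.0238 to 0.483 over all of them. CAB39 encodes MO25 alpha, the scaffold that stabilises the complex. Its log2 level was 7.96 and 8.23 in shCtl and 7.83 and 7.84 in shINSL4, and the shCtl arrays differed from each other more than for any other of the 10 genes (SD 0.189). The difference of -0.26 (SE 0.0946) had a BH-adjusted p of 0.111 in limma. Without shCtl replicate 1 it was -0.39 with a BH-adjusted p of 0.0180 in limma, and without shCtl replicate 2 it was -0.13, so the size of the CAB39 difference rests on which control array is used.

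The paralogous partner genes of the complex, STRADB and CAB39L, both passed the threshold. STRADB, the second STRAD pseudokinase gene, had a log2 level of 8.99 and 9.12 in shCtl and 7.99 and 8.08 in shINSL4. STRADB fell by 1.02 on the log2 scale (SE 0.0751, limma, BH-adjusted p = 0.000475), to about 49.4% of its shCtl level, and it passed under all 13 alternative settings. CAB39L, which encodes MO25 beta, fell by 0.30 (SE 0.0601, limma, BH-adjusted p = 0.0202), from 5.19 and 5.18 to 4.88 and 4.90. The CAB39L call was lost with all transcript clusters tested (limma, BH-adjusted p = 0.109). It was also lost without shINSL4 replicate 1 (-0.29) or shINSL4 replicate 2 (-0.31), in fits with a common SE of 0.131. Both STRAD genes were thus measured with values of opposite sign, 0.21 for STRADA, which passed under 4 of 13 alternative settings only, and -1.02 for STRADB, which passed under all; the difference between their changes was not tested.

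The CRTC genes encode the coactivators that dock on CREB. None of the 3 passed the threshold, and their differences did not share a sign. CRTC1, best known from brain and from a fusion with MAML2 in salivary gland tumours, had a log2 level of 7.64 and 7.54 in shCtl and 7.75 and 7.66 in shINSL4. The groups of CRTC1 were separated by a small gap, and the difference was 0.11 (SE 0.0711, 95% interval -0.06 to 0.28, limma, BH-adjusted p = 0.281). CRTC2, the coactivator of glucose production in liver, had a log2 level of 8.49 and 8.38 in shCtl and 8.70 and 8.64 in shINSL4. Both shINSL4 arrays lay above both shCtl arrays for CRTC2, with a difference of 0.23 (SE 0.0693, 95% interval 0.07 to 0.40, limma, BH-adjusted p = 0.0674). CRTC2 passed under 5 of 13 alternative settings, at an adjusted p of 0.0210 to 0.417 over all of them. CRTC3, which has been linked to energy balance in mouse fat tissue, had a log2 level of 8.64 and 8.63 in shCtl and 8.48 and 8.45 in shINSL4. For CRTC3 the shINSL4 arrays were the lower ones without overlap, with a difference of -0.17 (SE 0.0604, 95% interval -0.31 to -0.02, limma, BH-adjusted p = 0.108). The intervals given are for single genes and are not adjusted for the number of genes tested.

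CREB1 and CREM encode the transcription factors at the end of the route, and neither passed the threshold. CREB1, the activator that CRTCs bind, had a log2 level of 7.42 and 7.55 in shCtl and 7.45 and 7.54 in shINSL4. The spread within each group of CREB1 arrays (SD 0.0971 and 0.0636) exceeded the difference of 0.01 (SE 0.0749, 95% interval -0.17 to 0.19, limma, BH-adjusted p = 0.925). CREM encodes activator and repressor isoforms, including the short repressor ICER, which CREB itself induces. Its single row on the array does not separate these isoforms. CREM had a log2 level of 6.32 and 6.40 in shCtl and 6.28 and 6.38 in shINSL4, with overlapping groups and a difference of -0.03 (SE 0.0693, 95% interval -0.19 to 0.14, limma, BH-adjusted p = 0.768). The differences of CREB1 and CREM took either sign over the alternative settings and passed in 0 of them.

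**Figure D2:**
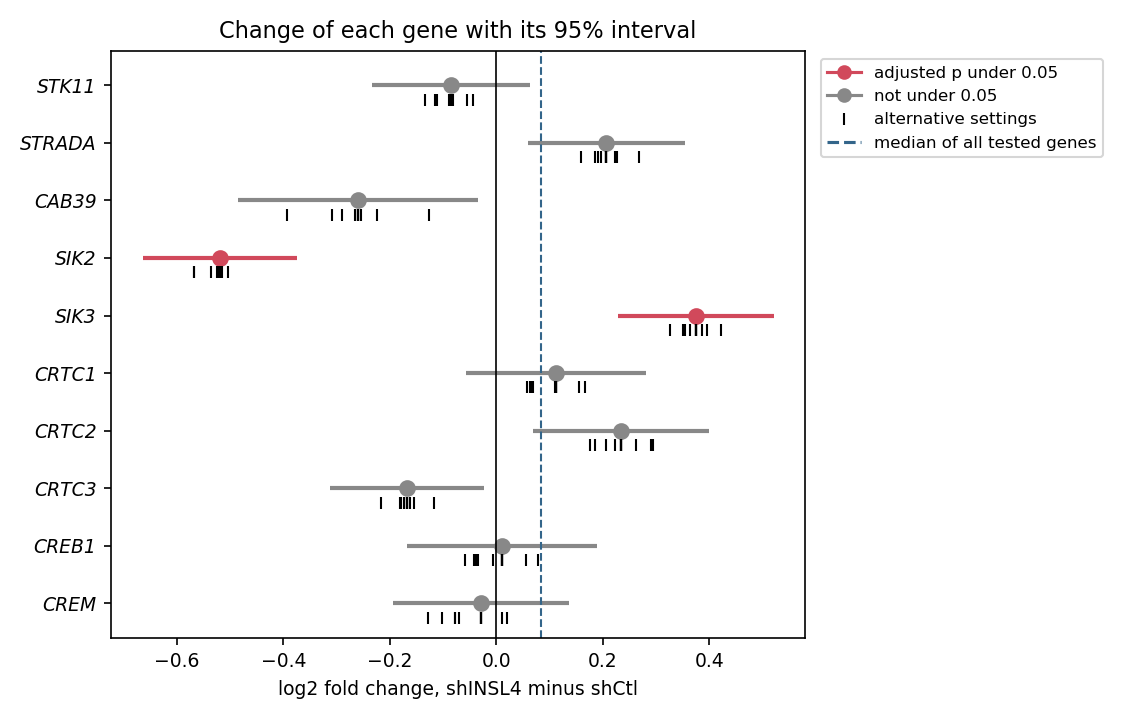
Log2 fold change, shINSL4 minus shCtl (x axis), of each of the 10 genes with its 95% interval from limma. Red marks an adjusted p under 0.05, grey the others, black ticks the values under the alternative settings and the dashed line the median of all tested genes, 0.08. SIK2 at -0.52 and SIK3 at 0.38 lie on opposite sides of 0, and the other values lie between -0.26 and 0.23.

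Among the 10 genes, 1 was higher and 1 lower, or 20%, beside 15.8% of all tested genes, so the share is near the background. The median of the 10 log2 fold changes was -0.01, beside 0.08 over all tested genes, with 5 values above and 5 below 0. The shCtl and shINSL4 arrays did not overlap for 8 of the 10 genes, beside 68.9% of all tested genes, and shINSL4 was above in 4 of them and below in 4. At an unadjusted p under 0.05, 6 of the 10 genes were counted, beside 34.3% of all tested genes: besides SIK2 and SIK3 these were STRADA, CAB39, CRTC2 and CRTC3.

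Other genes of the route came from 3 lists of textbook members. Their shares depend on the background: with the dimmest 40% of genes left out, 34.8% of all genes kept passed. The kinases and partners around LKB1 then had 3 higher and 3 lower of 12. The partners of CRTCs and CREB had 1 higher and 5 lower of 17, and the targets with INSL4 had 1 higher and 6 lower of 11. Counts below are without that filter. Among 14 kinases and partners around LKB1, 2 were higher and 4 lower (42.9%, beside 15.8% of all tested genes), and the list's median was 0.01. Besides STRADB, CAB39L and SIK1, the lower gene was PRKAA2, which encodes a catalytic subunit of the energy sensor AMPK. PRKAA2 had a log2 level of 8.38 and 8.58 in shCtl and 7.96 and 8.20 in shINSL4. PRKAA2 fell by 0.40 (SE 0.107, limma, BH-adjusted p = 0.0494), and it passed under 6 of 13 alternative settings, with an adjusted p of 0.00125 to 0.198 over them, and lost the call without shCtl replicate 2 (-0.30) or shINSL4 replicate 1 (-0.28). The higher genes were NUAK1, an AMPK-related kinase gene, and MARK4, a kinase gene that acts on microtubule-associated proteins. NUAK1 rose by 0.30 (SE 0.0615, limma, BH-adjusted p = 0.0211), from 7.52 and 7.47 to 7.78 and 7.81. MARK4 rose by 0.25 (SE 0.0628, limma, BH-adjusted p = 0.0411), from 7.80 and 7.74 to 8.01 and 8.03. Neither passed without shCtl replicate 2, at 0.28 for NUAK1 and 0.22 for MARK4. Neither passed without either shINSL4 array, in fits with a common SE of 0.131. MARK4 also lost its call with each array centred on its median (adjusted p = 0.0736) or after cyclic loess (adjusted p = 0.0520). With all transcript clusters tested both calls were lost (adjusted p = 0.111 for NUAK1 and 0.157 for MARK4).

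Among 19 measured partners of CRTCs and CREB, 0 were higher and 5 lower (26.3%, beside 15.8% of all tested genes). Their median log2 fold change was -0.07. With the dimmest 40% of genes left out, 1 of 17 was higher and 5 lower, beside 34.8% of all genes kept. Of the 21 listed, ATF1 and EP300 were not matched to a row with their symbol alone. PPP3CA encodes a catalytic subunit of calcineurin, the phosphatase that can free CRTCs from the cytoplasm. Its log2 level was 9.81 and 9.89 in shCtl and 8.24 and 8.28 in shINSL4, a wide gap between the groups. PPP3CA fell by 1.59 on the log2 scale (SE 0.0650, limma, BH-adjusted p = 0.000142), to 33.2% of its shCtl level. The paralogue PPP3CB and the regulatory subunit PPP3R1 did not pass, at 0.01 and -0.07. PRKAR1A and PRKAR2A encode regulatory subunits that hold protein kinase A, the cAMP-activated kinase of CREB, inactive. PRKAR1A fell by 1.14 (SE 0.0705, limma, BH-adjusted p = 0.000260), from 10.94 and 11.05 to 9.82 and 9.89. PRKAR2A fell by 0.78 (SE 0.0887, limma, BH-adjusted p = 0.00232), from 7.98 and 8.18 to 7.24 and 7.37. The catalytic subunits PRKACA and PRKACB did not pass, at -0.10 and -0.19. Of 6 YWHA adaptor genes, YWHAB fell by 0.32 and YWHAQ by 0.27 (limma, BH-adjusted p = 0.0224 and 0.0317). The others did not pass, at 0.10 for YWHAE, 0.12 for YWHAG, 0.19 for YWHAH and -0.10 for YWHAZ. Neither YWHAB nor YWHAQ passed without shCtl replicate 2 or without either shINSL4 array, nor with all transcript clusters tested (adjusted p = 0.111 and 0.137), and YWHAQ did not pass after quantile normalization (adjusted p = 0.0524), while PPP3CA, PRKAR1A and PRKAR2A passed in all 13 alternative settings.

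**Figure D3:**
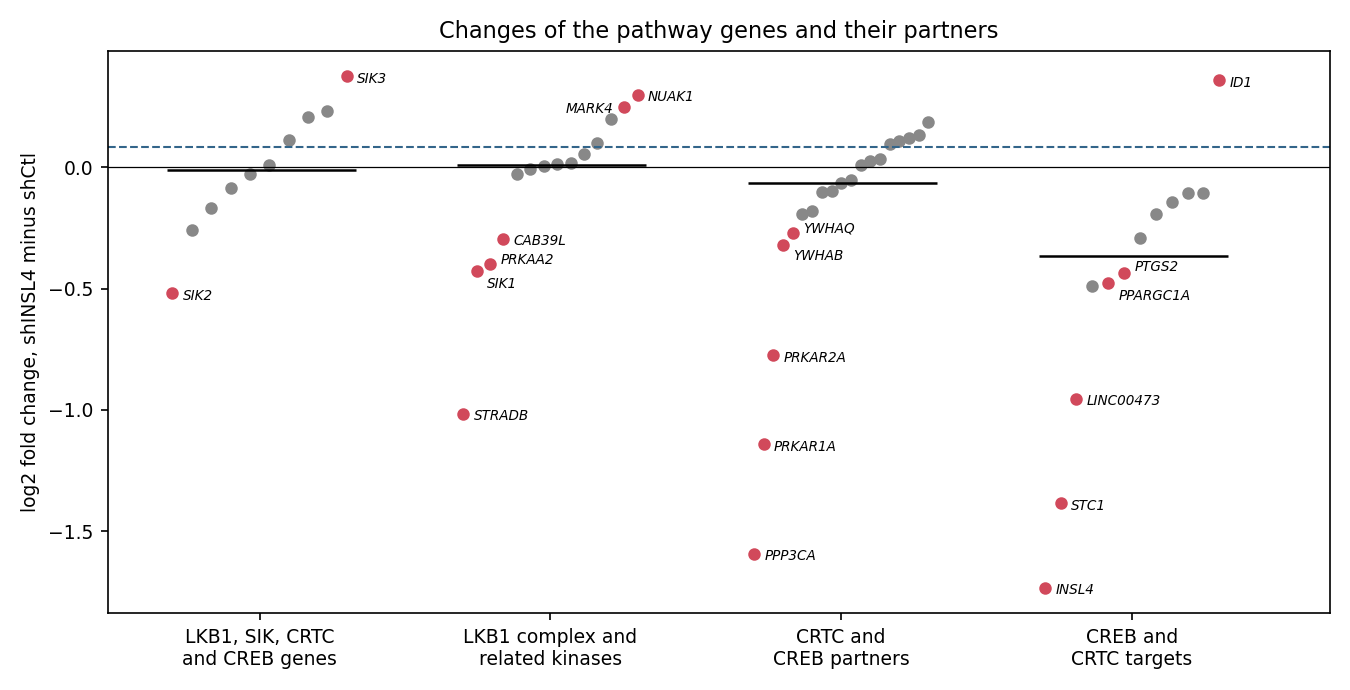
Log2 fold change, shINSL4 minus shCtl (y axis), of each measured gene in the 10-gene set and in the 3 lists of related genes, sorted within a list. Red points passed an adjusted p under 0.05 and are named, black lines are list medians and the dashed line is the median of all tested genes. The list of CREB and CRTC targets is drawn with INSL4, the targeted gene, at -1.73, and its median line at -0.37 includes it. PPP3CA at -1.59, PRKAR1A at -1.14 and STRADB at -1.02 lie below SIK2 at -0.52.

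Of 11 measured CREB and CRTC targets other than INSL4, 4 were lower and 1 higher (45.5%, beside 15.8% of all tested genes), with a median log2 fold change of -0.29, beside 0.08 over all tested genes; earlier results on these arrays were known when this list was written, so its direction is not independent evidence. STC1 fell by 1.39 and LINC00473 by 0.96 on the log2 scale, PPARGC1A by 0.48 and PTGS2 by 0.44, while ID1 rose by 0.36 (limma, BH-adjusted p = 0.000154 to 0.0209). ID1 lost its call without shINSL4 replicate 2 (0.30), with each array centred on its median (adjusted p = 0.0510) and with all transcript clusters tested (adjusted p = 0.104). The other 6 did not pass. They ran from -0.49 for NR4A2 (limma, BH-adjusted p = 0.0511) to -0.10 for PDE4D, with FOS at -0.19 and NR4A1 at -0.11.

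The gene profiles most like that of SIK2, once each gene was centred on its own mean over the 4 arrays, were those of ALKBH5, VAPB and CACNA1D. Their root mean square difference from SIK2 was 0.00201, 0.00672 and 0.0113 on the log2 scale, and with 4 arrays in 2 groups such likeness mostly says that a gene fell by a similar amount. The log2 fold changes were -0.52 for each of the 3 genes. The tested genes just before and after SIK2 and SIK3 in RefSeq order of start coordinates were also read, a choice made after the values were seen. Gene ends were not used, so a gene listed this way may overlap SIK2 or SIK3. Next to SIK2 in this order, PPP2R1B, a scaffold subunit gene of a serine/threonine phosphatase, rose by 0.49 (SE 0.0833, limma, BH-adjusted p = 0.0108), whereas LAYN did not pass, at 0.01. Next to SIK3 in this order, APOA1 at 0.08 and the small RNA pseudogene RNY4P6 at -0.20 did not pass.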

How the data were processed

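RNA from 4 cultures was labelled as biotinylated single-stranded cDNA for Affymetrix arrays, per the labels' protocols. The deposited values are log2 levels per transcript cluster. The authors used Affymetrix Expression Console and RMA, as the submitters' processing notes name them; this method removes background, gives the arrays like distributions and combines the probes of a cluster. Versions and genome build: not given in the sources used here. Of 67528 clusters, 23781 had exactly 1 symbol in the platform annotation; the highest-mean cluster per gene left 22465 genes, with no filter on dim genes. The test was two-sided limma 3.58.1 in R 4.3.3 (lmFit on group, then eBayes, 2 residual and 4.68 prior degrees of freedom), with p-values adjusted over all tested genes (Benjamini-Hochberg, threshold 0.05), and the pipeline was tested on simulated data. Whether the 2 cultures of a group share a transduction is not given, so p-values cover the spread of these cultures alone; the number of arrays limits the precision (median SE 0.0693). All members and INSL4 were named. From the related lists, genes past the threshold were named, up to 6 per list, with some uncalled genes chosen after their values were seen. Members and lists were chosen with earlier results of these data known. The 13 alternatives were a replicate block, a variance trend, robust variance, leaving out the dimmest 40% of genes, 3 normalizations, the mean over clusters, all clusters tested and leaving out each array.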

Additional observations from a re-analysis of the deposited data

How the results depend on the processing

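The 10 genes gave 2 calls. With the replicate number as a block (a replicate block) they gave 4, beside 24.9% of all tested genes. A variance trend gave 4, beside 19.8%, and quantile normalization gave 4, beside 16.4%. With the dimmest 40% of genes left out, 6 of 9 tested passed, beside 34.8% of all genes kept. With all clusters tested 1 passed, beside 3.01% of all clusters. The share over all genes thus moved with the setting as well. STRADA and CRTC2 were added by the block, the trend, the dim filter and quantile normalization, CAB39 and CRTC3 by the dim filter, and CAB39 and CRTC2 without shCtl replicate 1. Over all genes, 3557 passed, against 5601 with the block (53.5% of them higher), 2034 with all 67528 clusters tested and 2295 to 5429 with single arrays left out. The 3 lists held 14, 19 and 12 measured genes, and 17 of these passed, beside 15.8% of all tested genes. The variance trend gave 21, beside 19.8%, and the block 20, beside 24.9%. With all clusters tested 9 passed, beside 3.01% of all clusters. The dim filter kept 12, 17 and 11 listed genes, of which 19 passed, beside 34.8% of all genes kept. Each of these counts includes INSL4, the targeted gene. Among 129 refitted changes of the 10 genes, 115 kept their side of the threshold, 12 gained and 2 lost it, both of SIK3; among 219 of the 17 listed genes that passed, which could not gain a call, 33 lost it and 0 reversed. INSL4 passed in all 13, at -1.79 to -1.68. The causes were not tested.

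The replicate numbers are shared by both groups, but the labels do not say that they mark a batch; across genes, the difference between replicates 1 and 2 correlated at 0.23 between the groups, so the block result is a description only. A fit without an array leaves 1 array in its group, which is then assumed to vary like the other group. In both fits without a shINSL4 array, each gene followed here was given the same SE, 0.131, beside a median SE of 0.0693 in the main fit. Whether a gene passed there followed the size of its change alone, so a lost call does not show that it rested on that array. CREM was left out by the dim filter, as were CAB39L and PPARGC1A among the listed genes that passed. With 2 arrays per group and no detection calls, small differences and low levels are poorly resolved.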
